A study of Mus musculus with 12 samples.

Results

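Glul, Oat, Cyp2e1, Cyp1a2, Rhbg, Slc1a2, Axin2, Lect2, Tbx3 and Lgr5 are 10 genes that mark pericentral hepatocytes, the liver cells that surround the central veins. They were taken by gene symbol from a table of 24537 mouse genes, and all 10 were found in it. Livers came from male C57Bl/6J mice that were individually housed, 6 weeks old at the start, and either fed ad libitum (Con) or kept on calorie restriction (CR), that is, given 30% less food than the ad libitum group ate. RNA-Seq was done on 12 livers, 3 Con and 3 CR at day 25 of the intervention and 3 Con and 3 CR at day 30, on either side of the period in which the study followed a transition in hepatic protein synthesis. No allele or drug distinguished the groups, and each library is labelled as a separate sample. By the study's methods the CR mice ate a fortified version of the diet, given daily at a set hour. Amount of food, diet formulation and meal timing therefore cannot be told apart. Each library was a piece of whole liver, so fewer cells of a type and less RNA per cell cannot be told apart. Values are FPKM (fragments counted on a gene's exons, divided by exon length and by the library's total), a level that can be compared between genes because it is divided by gene length.

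In the liver lobule, blood flows from the portal vein to the central vein, and hepatocytes along this path express different enzymes. Wnt ligands and R-spondin 3 from the endothelium of the central vein act through Frizzled, LRP and LGR receptors to stabilise beta-catenin in the nearest hepatocytes, where it drives pericentral genes together with TCF transcription factors. The pericentral cells make glutamine from ammonia that escaped the periportal urea cycle and hold most of the cytochrome P450 enzymes, while periportal cells make glucose and urea.

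Relative to Con livers, CR livers held more Lect2 and less Tbx3 RNA at both time points, and more Cyp1a2, Slc1a2 and Cyp2e1 RNA at day 25. Lgr5 levels were lower in the 3 CR mice than in the 3 Con mice of each day, but Lgr5 entered the test through Con mice alone. The changes thus went in both directions within the pericentral genes. Lect2 was 2.00 times higher at day 25 and 1.71 times higher at day 30 as a ratio of mean FPKM, whereas Tbx3 stood at 0.577 and 0.560 times and Lgr5 at 0.529 and 0.508 times its Con level. Glul, Oat, Rhbg and Axin2 did not pass the test at either time point.

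The test was limma on log2(FPKM + 1) over the 10593 genes that reached an FPKM of 1 in 3 or more libraries, and a gene passed at a Benjamini-Hochberg adjusted p under 0.1. All 10 members passed this filter on low values, but Lgr5 did so only through Con mice, since 5 of 6 Con libraries and 0 of 6 CR libraries reached an FPKM of 1. The adjusted calls of the other 9 are therefore also counted alone. At day 25, 6 of the 10 passed, 4 higher and 2 lower in CR, where 14.9% of all genes tested passed, 5.6% higher and 9.34% lower. That count fell to 1 without Con replicate 1 and to 2 without CR replicate 2 or with no filter, where 9.44%, 13.0% and 7.55% of all genes passed. At day 30, 3 of the 10 passed, 1 higher and 2 lower, against 24.7% of all genes, 8.33% higher and 16.4% lower, so that the members' share was then near the background. With both days in 1 comparison of 6 against 6 mice and day as a covariate, 5 of the 10 passed, 3 higher and 2 lower, against 40.6% of all genes, 14.5% higher and 26.1% lower. Without Lgr5, 5 of 9 passed at day 25, 2 of 9 at day 30 and 4 of 9 over both days. Unadjusted p values were under 0.05 for 6 members at day 25, 4 at day 30 and 6 over both days, beside 24.9%, 31.7% and 42.9% of all genes tested. Lgr5 is among these members in each comparison. No member passed both the test and a 2-fold change (absolute log2 fold change of at least 1), which 1.48% of genes did at day 25, 2.21% at day 30 and 1.66% over both days. Lect2 at day 25 passed both with median-ratio scaling (log2 fold change 1.02), without Con replicate 1 (1.01) and without CR replicate 3 (1.13). All 3 CR values lay on the same side of all 3 Con values for 5 members at day 25, where 28.2% of genes did so. At day 30 this held for 3 members, beside 36.4% of genes. Both counts include Lgr5. The median log2 fold change of the 10, Lgr5 included, was 0.23 at day 25 and -0.0075 at day 30, beside -0.039 and -0.068 over all genes tested. Each fold change below is on the log2(FPKM + 1) scale, which understates the change of genes near an FPKM of 1.

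**Figure D1:**
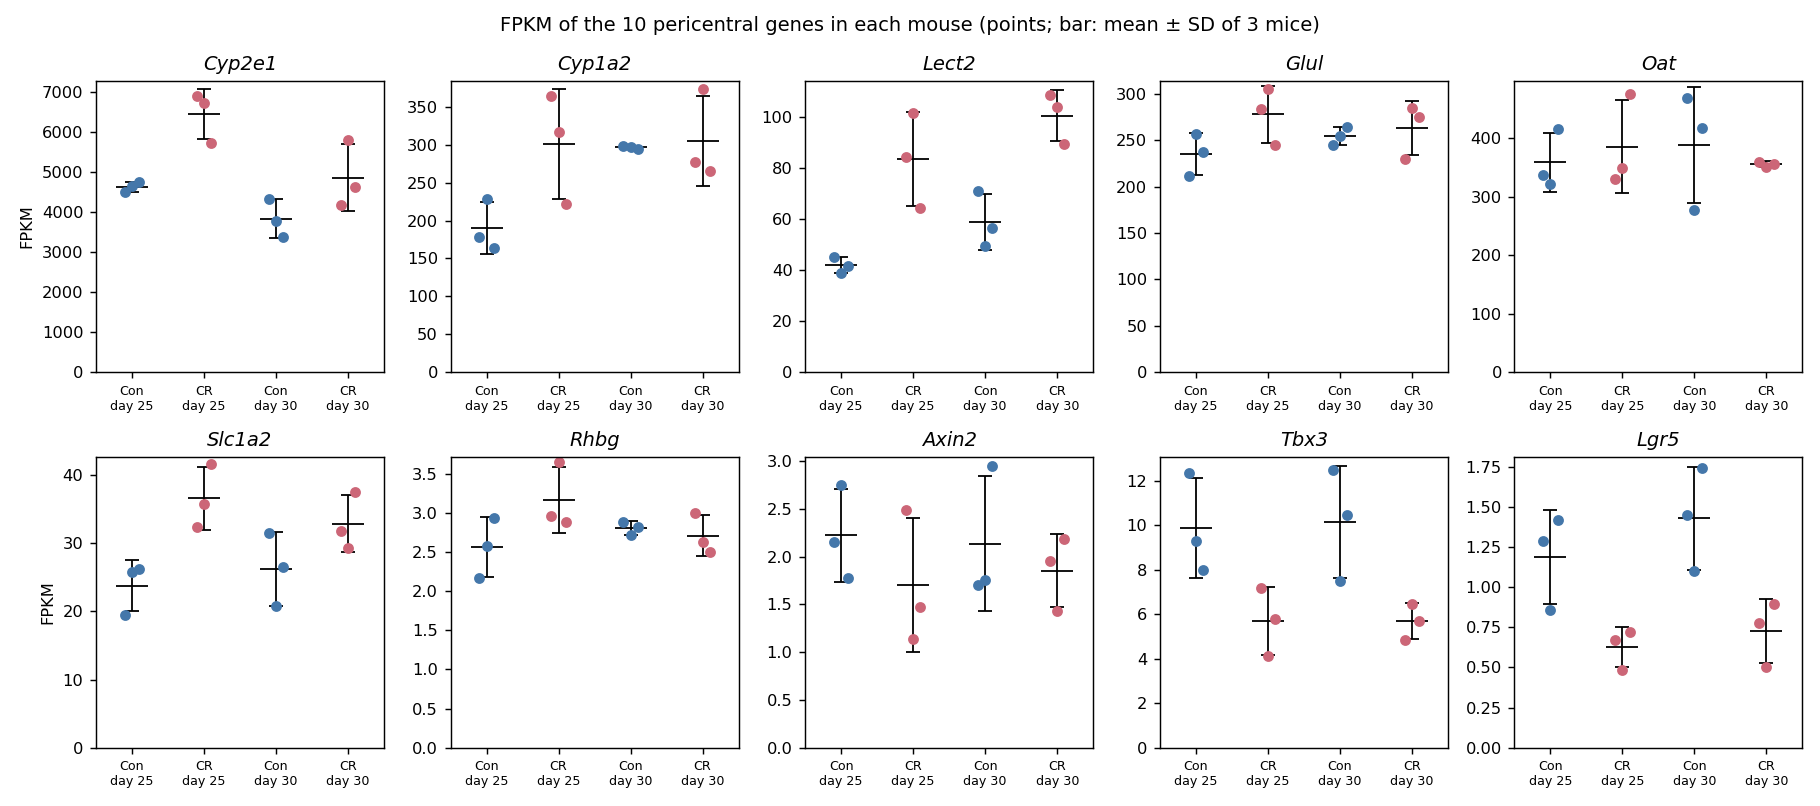
FPKM of the 10 genes (y axis, linear from 0, a scale of its own in each panel) in the 12 mice, by group (x axis; blue Con, red CR); points are mice and black bars are the mean ± SD of 3 mice. Lect2 was higher and Tbx3 and Lgr5 were lower in all 3 CR mice than in all 3 Con mice of the same day, at both days.

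**Figure D2:**
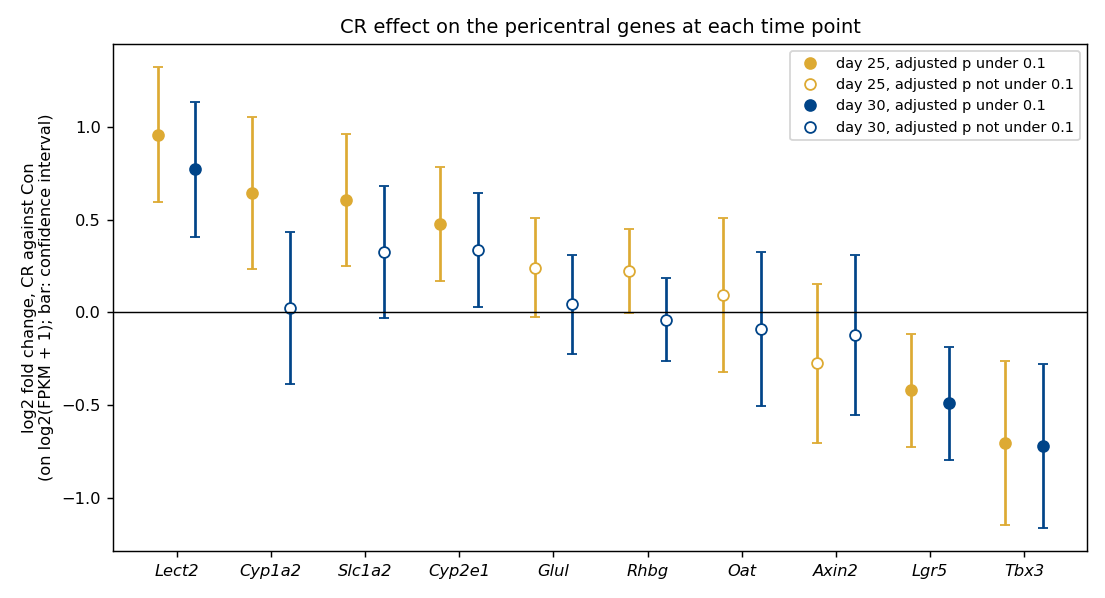
log2 fold change of CR against Con on log2(FPKM + 1) (y axis) for each gene (x axis), at day 25 (yellow) and day 30 (blue), with its 95% interval from limma; filled points had an adjusted p under 0.1. Filled points number 6 at day 25 and 3 at day 30.

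The library totals behind the FPKM, recovered from the steps between low values, were 15748878 to 23345291 reads, of which 78.1% to 84.3% were counted on the exons of the genes listed. The labelled tissue was checked against its markers: 4 hepatocyte genes (Alb, Apoa1, Ttr and Hnf4a) summed to between 34849 and 61145 FPKM, while 5 cholangiocyte genes summed to at most 4.12 FPKM, 3 acinar pancreas genes to at most 1.34 FPKM and 3 fat cell genes to at most 2.86 FPKM. No marker of these lists was at 0 in every library. The p-values rest on a spread between mice that is pooled over all 12 libraries and moderated across genes. They do not rest on the spread of the 3 mice of a single group.

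Promoters of 4 members are shown because they hold a match to the core that TCF and LEF proteins, the DNA-binding partners of beta-catenin, are known to bind. Each line gives the 250 bases upstream of the start in the RefSeq promoter entry on GRCm38.p6 (mm10), which for Cyp2e1 lies 13 bases before the start of the transcript in the expression table and for the other 3 coincides with it. Sequences are written 5′ to 3′ on the gene's strand, with the matches in capitals. The letters searched, on both strands, were CTTTGA, which reads as TCAAAG on the opposite strand, and CTTTGT, which reads as ACAAAG there. These motifs cannot overlap on 1 strand, as C is found only as their first base and they differ in their last base.
Slc1a2 (chr2:102706188-102706437, plus strand): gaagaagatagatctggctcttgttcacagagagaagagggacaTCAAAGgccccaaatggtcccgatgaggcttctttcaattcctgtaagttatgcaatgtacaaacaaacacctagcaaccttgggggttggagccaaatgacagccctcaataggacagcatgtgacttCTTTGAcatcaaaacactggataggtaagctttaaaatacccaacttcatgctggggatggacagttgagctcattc
Cyp2e1 (chr7:140763569-140763818, plus strand): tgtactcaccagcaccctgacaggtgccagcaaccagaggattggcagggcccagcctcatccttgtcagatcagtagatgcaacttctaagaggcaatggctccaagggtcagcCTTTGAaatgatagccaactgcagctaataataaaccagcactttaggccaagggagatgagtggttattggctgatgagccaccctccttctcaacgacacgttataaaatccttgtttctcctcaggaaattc
Cyp1a2 (chr9:57683656-57683905, minus strand): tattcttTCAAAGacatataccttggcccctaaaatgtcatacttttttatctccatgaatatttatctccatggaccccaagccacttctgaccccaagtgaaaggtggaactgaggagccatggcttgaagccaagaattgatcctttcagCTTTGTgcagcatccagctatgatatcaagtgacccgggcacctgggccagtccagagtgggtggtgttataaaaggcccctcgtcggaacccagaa
Lect2 (chr13:56548539-56548788, minus strand): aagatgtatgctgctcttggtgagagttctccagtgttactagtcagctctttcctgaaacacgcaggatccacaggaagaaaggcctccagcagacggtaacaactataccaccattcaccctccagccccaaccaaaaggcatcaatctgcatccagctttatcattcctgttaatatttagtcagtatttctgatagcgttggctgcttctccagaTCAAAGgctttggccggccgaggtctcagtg

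In Slc1a2 the matches began 206 bases before the gene's start, on the strand opposite to the gene, and 77 bases before it on the gene's own strand. Cyp2e1 had 1 match, 135 bases before the start of its promoter entry, on its own strand. Cyp1a2 had CTTTGA 243 bases before its start on the opposite strand and CTTTGT 97 bases before it on its own strand. The single match of Lect2 began 31 bases before the start on the opposite strand. Promoter entries were found for 7 members, of which Glul, Oat and Axin2 held neither motif in their window of 250 bases before and 50 after the start. Rhbg, Tbx3 and Lgr5 had no entry. Among 32851 mouse promoters of the same length, 16.0% held CTTTGA, 18.7% CTTTGT and 31.2% either of them. Base composition moved with the match: the 4 promoters with one had 45.7% to 49.7% G and C, the 3 without had 61.7% to 70.0%, and over all promoters either motif was found in 42.3% of those under 50% G and C and in 15.0% of those at 60% or more. A match is a description of letters and neither a binding site nor a cause. These 4 genes are also the 4 members that passed the test higher in CR at day 25, and with 7 promoters nothing was tested on that overlap. Glul and Oat, without a match, also had log2 fold changes above 0 at day 25 (0.24 and 0.09) but did not pass.

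Lect2 encodes a secreted liver protein, leukocyte cell-derived chemotaxin 2, and is a known beta-catenin target of hepatocytes (NM_010702, chr13:56542460-56548538, minus strand). At day 25 it read 45.1, 38.8 and 41.5 FPKM in the Con mice and 84.3, 102 and 64.4 FPKM in the CR mice, from 609 to 1556 reads per library. At day 30 the Con mice held 70.9, 49.2 and 56.5 FPKM and the CR mice 108, 104 and 89.3 FPKM. The lowest CR mouse stood above the highest Con mouse at each time point, although CR replicate 3 of day 25 lay below the highest Con mouse of day 30. CR against Con gave a log2 fold change of 0.96 at day 25 (SE 0.168, limma adjusted p = 0.0052), 0.77 at day 30 (SE 0.168, adjusted p = 0.00918) and 0.87 over both days (SE 0.117, adjusted p = 0.00017). Lect2 passed in all alternative settings and with any 1 mouse left out, with adjusted p values up to 0.0241 at day 25 and 0.0419 at day 30.

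Cyp2e1, the cytochrome P450 that oxidises ethanol, acetone and paracetamol, was by far the most abundant of the 10 (NM_021282, chr7:140763832-140774977, plus strand). At day 25 its levels were 4497, 4646 and 4745 FPKM in Con mice and 6899, 6727 and 5733 FPKM in CR mice. At day 30 Con mice read 4333, 3785 and 3373 FPKM and CR mice 4177, 5785 and 4615 FPKM. The groups were apart at day 25 and overlapped at day 30 through CR replicate 1. Its log2 fold change was 0.47 at day 25 (SE 0.141, limma adjusted p = 0.0555), 0.34 at day 30 (SE 0.141, adjusted p = 0.122) and 0.41 over both days (SE 0.0983, adjusted p = 0.00794). At day 25 its adjusted p lay between 0.107 and 0.156 without any 1 of Con replicates 1, 2 and 3 or CR replicates 1 and 2, and at 0.306 with no filter on low values. Without that filter the adjusted p over both days was 0.105. At day 30 it passed with median-ratio scaling (adjusted p = 0.0468), with quantile normalization (0.0212), with no trend on expression (0.0997), without Con10 (0.095) and without CR replicate 1 (0.0987), Con10 being the table's name for 1 Con library.

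Cyp1a2 encodes the P450 that metabolises caffeine and is induced through the aryl hydrocarbon receptor (NM_009993, chr9:57676937-57683655, minus strand). The Con mice of day 25 read 178, 229 and 164 FPKM and the CR mice 364, 317 and 222 FPKM. At day 30 the Con mice lay close together, at 298, 298 and 294 FPKM, and the CR mice at 277, 373 and 265 FPKM. The CR values overlapped the Con values at both days, at day 25 through CR replicate 3. Its log2 fold change was 0.64 at day 25 (SE 0.188, limma adjusted p = 0.0518) and 0.02 at day 30 (SE 0.188, adjusted p = 0.943), with a 95% interval of -0.38 to 0.43 at day 30. The mean of the CR mice was 301 FPKM at day 25 and 305 FPKM at day 30, while the Con mean was 190.2 FPKM at day 25 and 297 FPKM at day 30. The difference of the CR effect between days was -0.62 (95% interval -1.20 to -0.04, unadjusted p = 0.0375 and adjusted p = 0.9995 by limma). At day 25 the call was lost without Con replicate 1 (adjusted p = 0.139) or 3 (0.162), without CR replicate 1 (0.172) or 2 (0.122), with no filter (0.102) and with a fit of the 2 groups alone (0.102).

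The remaining 4 metabolic members handle ammonia, glutamate and glutamine. Slc1a2, a glutamate transporter of the plasma membrane (NM_011393, chr2:102706438-102778106, plus strand), read 19.4, 25.7 and 26.1 FPKM in Con mice and 32.4, 35.8 and 41.6 FPKM in CR mice at day 25. At day 30 it read 31.5, 20.7 and 26.4 FPKM in Con mice and 31.8, 29.3 and 37.5 FPKM in CR mice. All CR mice of day 25 were above all Con mice of either day (lowest 32.4 against highest 31.5 FPKM), a separation that was not counted over all genes. At day 30 1 CR mouse, replicate 2, lay below the highest Con mouse. The log2 fold change of Slc1a2 was 0.61 at day 25 (SE 0.164, limma adjusted p = 0.0385), 0.33 at day 30 (SE 0.164, adjusted p = 0.193) and 0.47 over both days (SE 0.118, adjusted p = 0.00989). Its day 25 call was lost without Con replicate 1 (adjusted p = 0.137) or CR replicate 3 (0.135).

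Glul encodes glutamine synthetase, which is confined to the innermost pericentral hepatocytes (NM_008131, chr1:153899929-153909723, plus strand). Its levels at day 25 were 211, 256 and 237 FPKM in Con mice and 284, 306 and 245 FPKM in CR mice. At day 30 they were 245, 255 and 265 FPKM in Con mice and 230.3, 285 and 275 FPKM in CR mice. The groups overlapped at both days. For Glul the log2 fold change was 0.24 at day 25 (95% interval -0.02 to 0.51, limma adjusted p = 0.243) and 0.04 at day 30 (95% interval -0.22 to 0.31, adjusted p = 0.840).

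Oat, ornithine aminotransferase, links ornithine to glutamate (NM_016978, chr7:132557475-132576398, minus strand). It read 338, 322 and 416 FPKM in Con mice and 330.3, 349 and 476 FPKM in CR mice at day 25. At day 30 the Con mice ranged widely, at 469.6, 278 and 417 FPKM, and the CR mice narrowly, at 360.2, 351 and 357 FPKM. The coefficient of variation was 25.5% in these Con mice and 1.30% in these CR mice, and the CR values lay inside the Con range. The CR effect on Oat was a log2 fold change of 0.09 at day 25 (95% interval -0.32 to 0.51, limma adjusted p = 0.813) and -0.09 at day 30 (95% interval -0.51 to 0.32, adjusted p = 0.780).

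Rhbg, an ammonium transporter (NM_021375, chr3:88242874-88254684, minus strand), was low, with 76 to 133 reads per library. At day 25 it read 2.17, 2.58 and 2.94 FPKM in Con mice and 2.96, 3.64 and 2.88 FPKM in CR mice. At day 30 it read 2.88, 2.71 and 2.83 FPKM in Con mice and 3.00, 2.63 and 2.50 FPKM in CR mice, and the groups overlapped at both days. The log2 fold change of Rhbg was 0.22 at day 25 (95% interval -0.0014 to 0.45, limma adjusted p = 0.204) and -0.04 at day 30 (95% interval -0.26 to 0.19, adjusted p = 0.828).

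The other 3 members are a transcription factor, a receptor for R-spondins and a scaffold of the beta-catenin destruction complex. Tbx3, a T-box transcription factor (NM_011535, chr5:119671233-119684724, plus strand), read 12.4, 9.29 and 8.01 FPKM in Con mice and 7.19, 4.13 and 5.79 FPKM in CR mice at day 25. Its day 30 levels were 12.5, 7.50 and 10.5 FPKM in Con mice and 4.86, 6.47 and 5.72 FPKM in CR mice. The highest of the 6 CR mice (7.19 FPKM) was below the lowest of the 6 Con mice (7.50 FPKM), so that the groups were apart across both days as well as within each. The share of all genes apart over 6 against 6 mice was not counted. The log2 fold change was -0.71 at day 25 (SE 0.204, limma adjusted p = 0.0495), -0.72 at day 30 (SE 0.204, adjusted p = 0.0316) and -0.71 over both days (SE 0.139, adjusted p = 0.00211). Its call was lost at day 25 without Con replicate 1 (adjusted p = 0.169), CR replicate 2 (0.147) or CR replicate 3 (0.109) or with no filter (0.108), and at day 30 without Con10 (0.114) or CR replicate 1 (0.120).

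Lgr5 is the receptor for R-spondins that marks the hepatocytes next to the central vein (NM_010195, chr10:115450314-115587780, minus strand). At day 25 it read 1.29, 0.858 and 1.42 FPKM in Con mice and 0.674, 0.487 and 0.721 FPKM in CR mice. The day 30 levels were 1.45, 1.10 and 1.74 FPKM in Con mice and 0.777, 0.504 and 0.895 FPKM in CR mice. The groups were apart within each day, on 74 to 184 reads per Con library and 36 to 98 reads per CR library. The log2 fold change was -0.42 at day 25 (SE 0.140, limma adjusted p = 0.0824), -0.49 at day 30 (SE 0.140, adjusted p = 0.0323) and -0.46 over both days (SE 0.0954, adjusted p = 0.00335). With a pseudocount of 0.1 the same contrasts gave -0.81 and -0.90, since a pseudocount of 1 is as large as the level itself. At day 25 the adjusted p was 0.133 to 0.234 without Con replicate 1 or 3 or any 1 of CR replicates 1, 2 and 3, 0.116 with median-ratio scaling, 0.168 with quantile normalization, 0.117 with no filter and 0.115 with a fit of the 2 groups alone, and at day 30 it was 0.115 without Con12 and 0.104 without CR replicate 2.

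Axin2, a scaffold of the beta-catenin destruction complex that is itself a general Wnt target (NM_015732, chr11:108920349-108950781, plus strand), read 2.15, 2.74 and 1.78 FPKM in Con mice and 2.49, 1.14 and 1.48 FPKM in CR mice at day 25. At day 30 it read 1.70, 1.76 and 2.95 FPKM in Con mice and 1.95, 1.43 and 2.18 FPKM in CR mice. The groups overlapped at both days, on 76 to 282 reads per library. For Axin2 the log2 fold change was -0.28 at day 25 (95% interval -0.70 to 0.15, limma adjusted p = 0.426) and -0.12 at day 30 (95% interval -0.55 to 0.31, adjusted p = 0.708).

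Summed markers of other liver cells were apart between CR and Con in some comparisons. These were stellate cells at both days, sinusoidal endothelium at day 30 and Kupffer cells at day 25. The sums overlapped for endothelium at day 25 and Kupffer cells at day 30. Of all genes tested, 5.6% passed higher and 9.34% lower at day 25, and 8.33% and 16.4% at day 30. The summed level of 6 stellate cell markers was 63.3 to 70.0 FPKM in Con and 75.2 to 83.5 FPKM in CR at day 25, and 54.7 to 71.4 and 79.7 to 95.0 FPKM at day 30. All 6 had a fold change above 0 at both days, and 1 passed higher at day 25 (Reln) and 3 at day 30 (Reln, Dcn and Des). Des reached an FPKM of 1 in CR mice only, and with no filter its adjusted p at day 30 was 0.104 by limma. The 6 markers of sinusoidal endothelium summed to 34.6 to 51.7 FPKM in Con and 43.9 to 54.0 FPKM in CR at day 25, and to 32.7 to 36.6 and 44.3 to 50.1 FPKM at day 30, with 1 passing higher at day 25 (Stab2) and 3 at day 30 (Oit3, Clec4g and Stab2); 4 of these 6 had a fold change above 0 at day 25 and all 6 at day 30. The 6 Kupffer cell markers summed to 34.4 to 56.5 FPKM in Con and 22.1 to 29.1 FPKM in CR at day 25, where Cd5l, Vsig4 and Clec4f passed lower and 5 of 6 had a fold change below 0, the exception being Marco (0.37). At day 30 they summed to 30.1 to 44.6 and 30.3 to 40.1 FPKM, and Marco passed higher while 4 of 6 had a fold change below 0 (median -0.13). Of the 4 hepatocyte markers, none passed at day 25 and Alb passed higher at day 30 (log2 fold change 0.64, limma adjusted p = 0.00791, 0.592 with no filter). Their sum was then 34849 to 43621 FPKM in Con and 50701 to 61145 FPKM in CR, most of it Alb (mean 29732 and 46413 FPKM). At each day 3 of the 4 had a fold change above 0, while Apoa1 was below 0 (-0.24 and -0.23). Over both days 1 marker passed higher and 1 lower. No marker of these 4 lists was at 0 in every library, and their part in the results of the pericentral genes was not tested.

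Between day 25 and day 30, no member passed the test in CR mice, where 0.321% of all genes did, or in Con mice, where 0% did. Unadjusted p values were under 0.05 for 8.66% of all genes in CR mice and 7.22% in Con mice. In CR mice 1 member had an unadjusted p under 0.05: Cyp2e1 was lower at day 30, by -0.42 on the log2 scale (95% interval -0.72 to -0.11, unadjusted p = 0.0116, adjusted p = 0.385 by limma), with the mice of the 2 days overlapping. Cyp2e1 was also lower in Con mice, by -0.28 (95% interval -0.59 to 0.03, unadjusted p = 0.0697, adjusted p = 0.694 by limma), with all 3 Con mice of day 30 below all 3 of day 25. In Con mice 2 members had an unadjusted p under 0.05: Cyp1a2 was 0.65 higher (95% interval 0.24 to 1.06, unadjusted p = 0.00447, adjusted p = 0.469 by limma) and Lect2 0.47 higher (95% interval 0.11 to 0.84, unadjusted p = 0.0155, adjusted p = 0.564 by limma), each with all 3 Con mice of day 30 above all 3 of day 25. The share of all genes with the days apart in this way was not counted. The difference of the CR effect between the days passed for no member and for 0.00944% of all genes (1 gene), with an adjusted p of 0.9995 for each member and an unadjusted p under 0.05 for Cyp1a2 alone, by limma. A change of call between the days is therefore not a shown difference in Cyp1a2, Cyp2e1 or Slc1a2. The comparisons at day 25 and day 30 used different mice, while each comparison of days shares its mice with them.

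Ordered by mean FPKM over the 12 mice, Cyp2e1 (4943 FPKM) was followed by Oat (372), Cyp1a2 (273), Glul (258), Lect2 (71.1), Slc1a2 (29.9), Tbx3 (7.86), Rhbg (2.81), Axin2 (1.98) and Lgr5 (0.992). This order held in all 12 libraries for each pair of neighbours except 3. Oat exceeded Cyp1a2 in 9 of 12, by 98.9 ± 99.2 FPKM (mean ± SD of the 12 differences). Cyp1a2 exceeded Glul in 7 of 12, by 15.3 ± 49.4 FPKM, and Rhbg exceeded Axin2 in 10 of 12, by 0.831 ± 0.769 FPKM.

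Among mice of the same group, neither a common rise and fall of the 10 genes nor separate variation was shown with 12 mice. The Pearson r of their deviations from the 4 group means, over 12 mice, ranged from -0.65 to 0.76 over 45 pairs and was above 0 for 27 of them. The highest was that of Oat with Slc1a2 (r = 0.76, exact permutation p = 0.0386 within groups, adjusted p = 0.549, Spearman rho = 0.73, exact permutation p = 0.0409, adjusted p = 0.460, and r = 0.62 without the 2 mice farthest in Oat). Cyp2e1 and Cyp1a2, the P450 genes, varied together with r = 0.64 (exact permutation p = 0.0594, adjusted p = 0.549; Spearman rho = 0.70, p = 0.0347, adjusted p = 0.460; r = 0.53 without the 2 mice farthest in Cyp2e1). Oat and Cyp1a2 ran opposite to each other (r = -0.54, exact permutation p = 0.00617, adjusted p = 0.278; Spearman rho = -0.62, p = 0.0208, adjusted p = 0.460; r = -0.56 without the 2 mice farthest in Oat). Cyp1a2 and Lgr5 did so too (r = -0.64, exact permutation p = 0.0394, adjusted p = 0.549; Spearman rho = -0.73, p = 0.00617, adjusted p = 0.278; r = -0.59 without the 2 mice farthest in Cyp1a2). No pair passed after Benjamini-Hochberg adjustment over the 45, 3 pairs had an unadjusted p under 0.05 for r, and all points share their libraries.

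**Figure D3:**
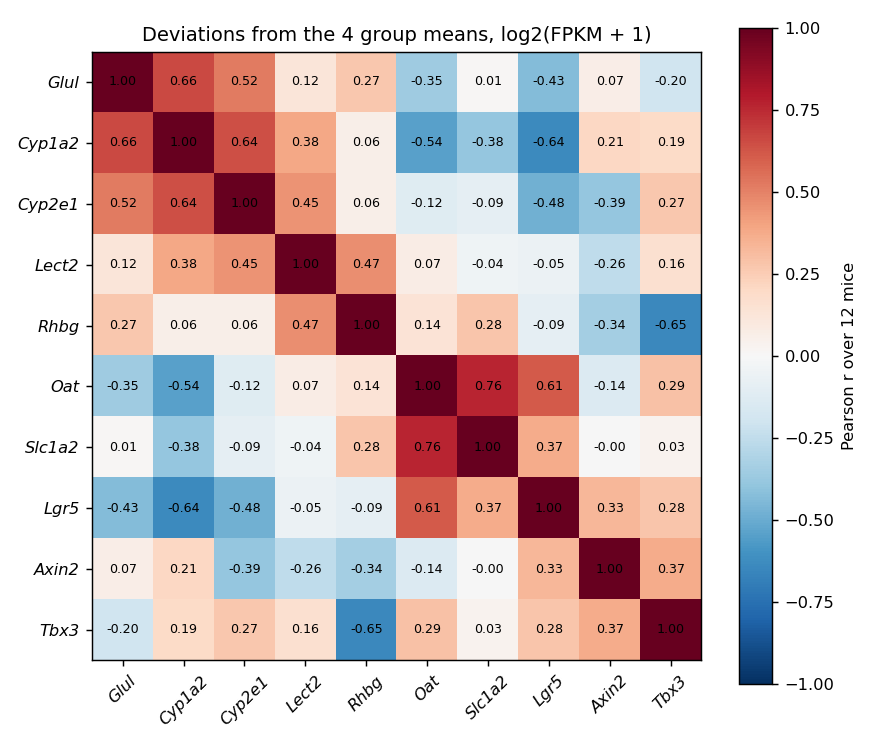
Pearson r (colour, from -1 in blue to 1 in red, value printed in each cell) between the deviations of 10 pericentral genes from their group means on log2(FPKM + 1), over 12 mice; both axes list the genes. Values off the diagonal run from -0.65 (Rhbg with Tbx3) to 0.76 (Oat with Slc1a2).

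The genes whose deviations over the 12 mice were most like those of each member, among all genes tested, are given as a description of these libraries. They were Efhd2 (r = 0.948) and Narf (0.946) for Glul, Lhpp (0.960) and As3mt (0.952) for Oat, and Morc2a (0.971) and Paqr7 (0.944) for Cyp2e1. For Cyp1a2 they were Ttc27 (0.977) and Hspb11 (0.942), for Rhbg Polr2j (0.953) and Ap2m1 (0.949), and for Slc1a2 Mir3968 (0.940) and Susd6 (0.917). For Axin2 they were Nf2 (0.953) and Sertad2 (0.942), for Lect2 Pml (0.955) and Hnf4aos (0.904), for Tbx3 Gas1 (0.942) and P2ry4 (0.899), and for Lgr5 A330093E20Rik (0.920) and Cdkn1c (0.905). Lhpp is itself on the list of other pericentral genes used below. No member was among the 2 genes most like another member.

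Other genes of the lobule's 2 zones and of the pathways around the members were read from lists. Their counts stand beside the shares of all genes that passed, 5.6% higher and 9.34% lower at day 25 and 8.33% higher and 16.4% lower at day 30. Of 26 other pericentral genes, all tested, 5 passed higher and 0 lower at day 25, and 5 higher and 1 lower at day 30, with a median log2 fold change of 0.19 and 0.0011. Cyp2a5, a coumarin-metabolising P450, was higher by 1.32 at day 25 and 0.92 at day 30 (limma adjusted p = 0.00368 and 0.0140), and Gstm3, a glutathione transferase, by 1.19 and 1.48 (adjusted p = 0.0730 and 0.0215); both have close paralogs that can share reads. Rnase4, a secreted ribonuclease whose locus overlaps that of Ang, was higher by 0.54 and 0.74 (limma adjusted p = 0.0104 and 0.0011), and Rgn, regucalcin, by 0.71 at day 25 (adjusted p = 0.0113) with 0.34 at day 30 (adjusted p = 0.135). Of 23 periportal genes, 2 passed higher and 3 lower at day 25, and 5 higher and 2 lower at day 30, with a median of -0.0018 and 0.22. Tat, tyrosine aminotransferase, was higher by 1.34 and 1.69 (limma adjusted p = 0.0149 and 0.00287), and Sds, serine dehydratase, by 0.95 and 1.21 (adjusted p = 0.0492 and 0.0112). Pck1, the gluconeogenic enzyme, was higher by 1.02 at day 30 (limma adjusted p = 0.00344) with 0.27 at day 25 (adjusted p = 0.406), while Cdh1, E-cadherin, was lower by 1.11 and 0.88 on the log2 scale at day 25 and 30 (fold changes -1.11 and -0.88, limma adjusted p = 0.0375 and 0.0640). Changes in both directions were thus present in both zones.

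**Figure D4:**
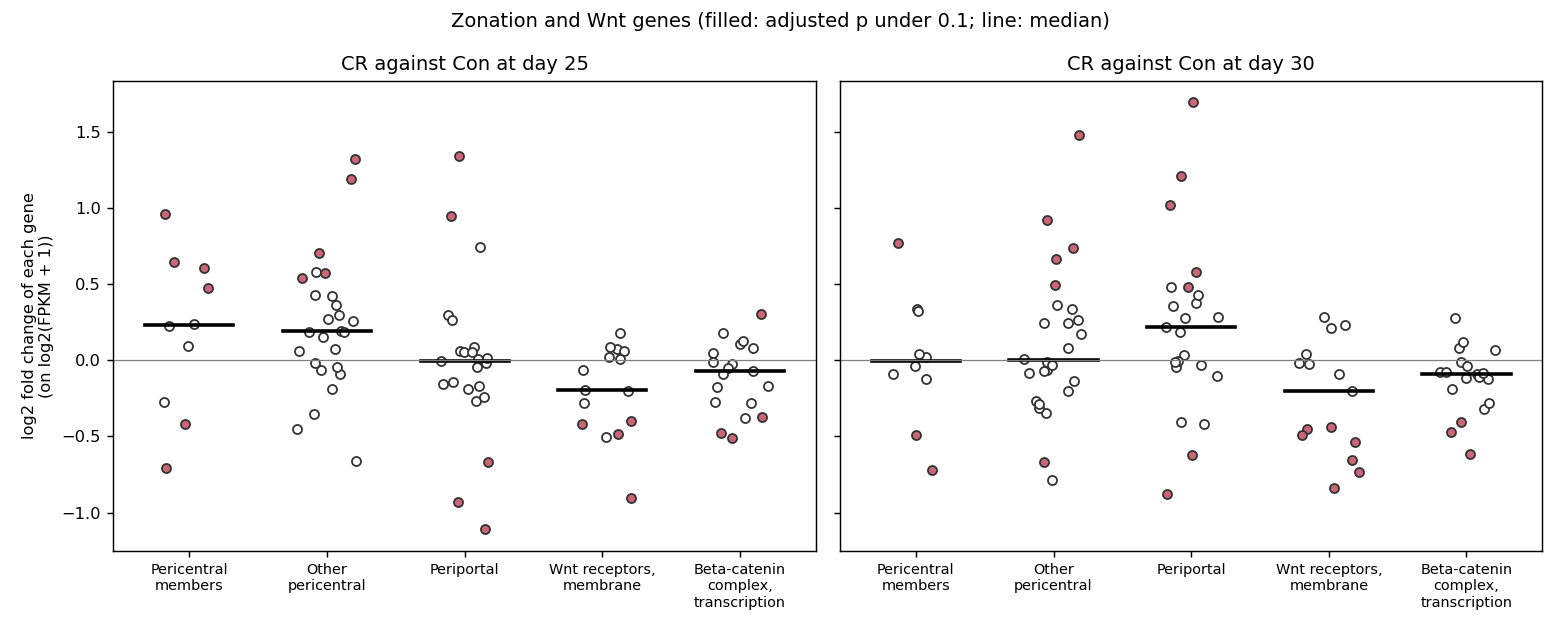
log2 fold change of CR against Con on log2(FPKM + 1) (y axis) for each gene (points; filled where the adjusted p was under 0.1) of 5 lists (x axis) at day 25 (left) and day 30 (right), with black lines at each list's median. The median of the 10 pericentral members was 0.23 at day 25 and -0.0075 at day 30, and that of the 23 periportal genes -0.0018 and 0.22.

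Upstream of the members, the Wnt ligands and R-spondins were low. Of 9 listed, 4 passed the filter on low values and 0 of these passed the test at either day, where 2 of 4 had a fold change above 0 at day 25 and 3 of 4 at day 30. Wnt2, a ligand of central vein and sinusoidal endothelium, ranged from 0.631 to 1.38 FPKM over the 12 mice, with log2 fold changes of 0.0044 and 0.05 (limma adjusted p = 0.992 and 0.865). Rspo3 ranged from 1.28 to 2.22 FPKM, with -0.10 and 0.14 (limma adjusted p = 0.552 and 0.347). Wnt9b was below the filter, at 0.053 to 0.194 FPKM. So was Wnt5a, named after its values were seen, which ranged from 0.365 to 0.525 FPKM in Con and 0.085 to 0.190 FPKM in CR mice at day 25, and from 0.252 to 0.459 and 0.092 to 0.249 FPKM at day 30. The CR values of Wnt5a lay below its Con values at both days, at levels below the filter of the test. Of all genes tested, 28.2% were apart in either direction at day 25 and 36.4% at day 30. With no filter, the limma adjusted p of Wnt5a was 0.0315 at day 25 and 0.125 at day 30. Wnt4, Wnt9b, Wnt11 and Rspo1, also below the filter, then had adjusted p values of at least 0.526 at day 25 and 0.481 at day 30.

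Among 14 tested receptors and membrane regulators of the Wnt pathway other than Lgr5, 0 passed higher and 3 lower at day 25, and 0 higher and 6 lower at day 30. Both counts of lower genes include Fzd6, which entered the test through Con mice alone. With Lgr5 the list's median was -0.19 and -0.20. Lrp5, a co-receptor, had log2 fold changes of -0.91 and -0.84 (limma adjusted p = 0.00103 and 0.000766). The Frizzled receptor Fzd6 had -0.49 and -0.65 (limma adjusted p = 0.0796 and 0.0173; 0.131 and 0.0362 with no filter, which Fzd6 had passed through Con mice alone), and Fzd7 -0.50 and -0.73 (adjusted p = 0.108 and 0.0181). Rnf43, a ubiquitin ligase that removes Frizzled receptors from the membrane and so opposes the pathway, had -0.40 and -0.54 (limma adjusted p = 0.0760 and 0.0168).

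Of the 18 tested genes of the destruction complex and of beta-catenin's transcription partners other than Axin2, 1 passed higher and 3 lower at day 25, and 0 higher and 3 lower at day 30, with a median including Axin2 of -0.07 and -0.09. Of all genes tested, 9.34% passed lower at day 25 and 16.4% at day 30. Both counts of lower genes include Bcl9, which entered the test through Con mice alone. Tcf7l2, a TCF partner of beta-catenin in hepatocytes, had log2 fold changes of -0.51 and -0.62 (limma adjusted p = 0.0109 and 0.00247). Bcl9, a co-activator, had -0.48 and -0.47 (limma adjusted p = 0.0268 and 0.0185; 0.0351 and 0.0233 with no filter, which Bcl9 too had passed through Con mice alone), and Btrc, which marks beta-catenin for degradation, had -0.37 and -0.40 (adjusted p = 0.0445 and 0.0215). Dvl2, a signal relay below Frizzled, was higher by 0.30 at day 25 (limma adjusted p = 0.0924) with 0.08 at day 30 (adjusted p = 0.638).

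The list of regulators of Cyp1a2 and Cyp2e1 also holds Por, a partner enzyme. Of its 7 tested genes that are reported here, 2 passed higher at day 25 and 3 at day 30. Por, the reductase that passes electrons to all microsomal P450 enzymes, was higher by 1.14 and 1.65 (limma adjusted p = 0.00608 and 0.000412), and Nr1i2, the pregnane X receptor, by 0.75 and 0.84 (adjusted p = 0.00684 and 0.00206). Tiparp, a target and repressor of the aryl hydrocarbon receptor, was higher by 0.33 at day 30 (limma adjusted p = 0.0875, 0.135 with no filter) with 0.23 at day 25 (adjusted p = 0.282). Ahr, the gene of that receptor, had log2 fold changes of -0.06 at day 25 and -0.07 at day 30 and did not pass.

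Of 16 tested genes that handle nitrogen beside Glul, Oat, Rhbg and Slc1a2, 5 passed higher and 0 lower at day 25 and 6 higher and 0 lower at day 30, with a median of 0.28 at both. Slc1a5, on this list, entered the test through CR mice alone. With no filter its limma adjusted p was 0.114 at day 25 and 0.117 at day 30. Got1, the cytosolic aspartate aminotransferase, was higher by 1.20 and 1.70 (limma adjusted p = 0.0202 and 0.00216). Prodh and Aldh4a1, which turn proline into glutamate, were higher by 0.55 and 0.62 (limma adjusted p = 0.0822 and 0.0381) and by 0.53 and 0.50 (adjusted p = 0.0204 and 0.0183). Slc38a2, a neutral amino acid transporter, was higher by 0.64 at day 25 (limma adjusted p = 0.0159) with 0.35 at day 30 (adjusted p = 0.116). Of the 4 members that handle nitrogen, Slc1a2 passed at day 25 and none did at day 30.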

How the data were processed

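Liver total RNA from 12 mice was sequenced as 100 bp paired-end reads on a single HiSeq4000 lane. Per the study's methods, the labels and the table's header, reads passed CASAVA 1.8.2 and FastQC and were mapped to mm10 with BWA, and HOMER counted reads on exons, keeping 1 transcript per gene. The deposited values are FPKM computed by the authors, scaled to each library's total with no further scaling, so a shift in a few abundant genes moves all others. The counting is not stated to use strand.

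Limma 3.58.1 (R 4.3.3) was run on log2(FPKM + 1) with 4 group means, a spread shared by all 12 libraries and a trend on expression, for 10593 genes that reached an FPKM of 1 in 3 or more libraries; p-values are 2-sided and adjusted over these genes. Depths of 15748878 to 23345291 reads came from steps between low values (within 0.1 of a whole read for 1500 values per library). The precision this gives is stated as reads beside low genes. No 2 libraries held identical values.

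Same-numbered Con and CR mice of day 25 deviated together (r of 0.106 to 0.368 over genes, against a mean of -0.13 for different numbers), so a fit with the number as a block was run. At day 30 the Con columns are not tied to numbered samples.

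The members and all gene lists were chosen with earlier results of these data known. Named are all members, Wnt2, Wnt9b and Rspo3, and from each other list up to 4 genes that passed at day 25 or 30 with the largest change. Wnt5a, Wnt4, Wnt11, Rspo1 and Ahr were named outside this rule, after their values were seen. Likeness is the Pearson r of deviations from group means. Marker lists covered hepatocytes, sinusoidal endothelium, stellate cells, Kupffer cells, cholangiocytes, acinar pancreas and fat cells; of the last 3, 1 gene each was tested and 0 passed. The hepatocyte marker Tf was not matched by symbol. A listed regulator of Cyp1a2 and Cyp2e1 is not reported here and was left out of that list's counts. Alternatives were a pseudocount of 0.1, no filter, median-ratio scaling, TPM, quantile normalization, no trend, limma-voom on recovered reads, 2 groups alone, the block, and each mouse left out. Scripts were tested on simulated data.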

Additional observations from a re-analysis of the deposited data

How the results depend on the processing

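The count of pericentral genes past the test at day 25 was 6. It was 2 with no filter on low values and between 1 and 5 when 1 mouse was left out: 1 without Con replicate 1, 2 without CR replicate 2, 3 without Con replicate 3, CR replicate 1 or CR replicate 3, and 5 without Con replicate 2. The share of all genes past the test moved too, from 14.9% to 7.55% with no filter and to between 8.43% and 13.0% with 1 mouse left out. At day 30 the count was 3, from 2 to 3 with 1 mouse left out. Over both days it was 5, from 5 to 7 with 1 mouse left out, 7 with median-ratio scaling and 4 with no filter. It was 0 in every setting run for both comparisons of days and for the difference between days. With the replicate number as a block at day 25, 6 members passed and no member's call changed. Same-numbered CR mice of day 25 and day 30 did not deviate together (r of -0.38 to 0.30), and the block gave 0 there. Direction turned where the log2 fold change was near 0. With quantile normalization it was -0.0131 for Oat at day 25 and -0.0922 over both days, and at day 30 it was -0.042 for Glul, -0.0581 for Cyp1a2 and 0.0623 for Rhbg. With TPM it was -0.0100 for Cyp1a2 at day 30 and -0.0252 for Oat over both days, and with median-ratio scaling 0.0217 for Rhbg at day 30. With 1 mouse left out it ran from -0.0697 (without CR replicate 3) to 0.204 for Oat at day 25, from -0.314 to 0.0628 (without Con10) for Oat at day 30, and from -0.0881 (without Con11) to 0.0795 for Oat over both days. At day 30 it ran from -0.0173 (without CR replicate 2) to 0.137 for Glul, from -0.129 (without CR replicate 2) to 0.116 for Cyp1a2, from -0.0948 to 0.00125 (without CR replicate 3) for Rhbg, and from -0.218 to 0.0549 (without Con12) for Axin2. The causes were not tested. Of all values recomputed, 418 were on the same side of zero and of the threshold, 32 lost the call, 12 gained one and 18 turned. Lgr5, Rhbg and Axin2 rested on at most 282 reads per library. No member was below the filter, so the exact test meant for such genes was not run.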
